A study of Mus musculus with 6 samples.

Results

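Pdk4, Aco1, Aldh1b1 and Grhpr, 4 genes of hepatic fuel use, were examined in the liver of antibiotic-treated (ABX) mice under short day (SD). The genes were chosen by symbol, with earlier results of these data known, and they were 4 of the 55357 rows of the count table. Pdk4 acts on pyruvate use, Aco1 on citrate, Aldh1b1 on aldehydes and Grhpr on glyoxylate. Fructose was named with this group of enzymes, but none of the 4 genes encodes an enzyme of fructose breakdown.

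The SD group held 3 liver samples of C57BL/6 mice (C57BL/6N in the methods) kept under 8 h light and 16 h dark, and the normal light-dark cycle (NLD) group held 3 liver samples of mice of the same line kept under 12 h light and 12 h dark. The methods give more mice per group than samples were sequenced, and which mice gave the samples is not stated. The mice of both groups drank water with gentamicin, sulbenicillin, cephalosporin and amphotericin B, so that no liver of a mouse with an intact microbiota was compared here. The labels give Day 28 for every sample. In the methods, 28 days is the length of a first stage of acclimatization to diet, light and antibiotics, and a formal stage follows it. How long the sampled mice had been under SD is therefore not settled. No source used here gives the age or sex of the mice. The mice of both groups were fasted for a full day and then killed during a single window of the morning, and each sample is 1 RNA library. A liver at a single hour cannot tell a shift in phase of a daily rhythm from a change in level, and in bulk liver fewer cells of a type and less RNA per cell cannot be told apart.

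After a meal, the pyruvate dehydrogenase complex turns pyruvate into acetyl-CoA in the mitochondria. During a fast, Pdk4 phosphorylates and switches off this complex, so that pyruvate is spared for glucose synthesis while fatty acids are burned, and Pdk4 transcription is known to rise with PPARA and FOXO1 activity. Aco1 is the cytosolic aconitase, which interconverts citrate and isocitrate, and without its iron-sulfur cluster the same protein is iron regulatory protein 1, which binds messenger RNAs of iron uptake and storage. Aldh1b1 is a mitochondrial aldehyde dehydrogenase that oxidizes acetaldehyde and related aldehydes. Grhpr reduces glyoxylate to glycolate and hydroxypyruvate to D-glycerate, and its loss in humans causes primary hyperoxaluria, because glyoxylate is then turned into oxalate.

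The libraries held 5548753 to 6932965 counts under SD and 5497797 to 6457190 counts under NLD. The methods name GRCm39 and the labels name GRCm38 as the genome, and most genes lie at other coordinates in the one than in the other. Of 21109 protein-coding rows compared between the builds, 535 (2.53%) lay at the same position, and 83.8% did not overlap at all. The 535 rows were read as their gene whichever build was used. The name of another row may stand for another gene if the alignment used one build and the counting the other. Whether this was so was not tested. All 4 genes belonged to the 535 rows, on chromosomes 4 and 6. Of 30 hepatocyte marker rows, 16 had a count of 0 throughout, such as Apoa1, Ttr and Fgg, and none of these 16 lay at the same position. The 3 hepatocyte markers at the same position, Cyp7a1, Pon1 and Pon3, averaged 5081 ± 1718, 14191 ± 1027 and 874 ± 41.0 CPM (counts scaled to a common library size with TMM factors) under SD and 1723 ± 646, 16973 ± 1809 and 784 ± 3.52 CPM under NLD (standard deviation, n = 3 each). In a principal component analysis of log2 CPM, NLD replicates 2 and 3 lay apart from the other 4 libraries on the first component.

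Pdk4 lies on the minus strand of chromosome 6 from 5483097 to 5496339 (GRCm39), and Aco1 lies on the plus strand of chromosome 4 from 40142998 to 40199010. Aldh1b1 and Grhpr lie on the plus strand of chromosome 4 from 45798886 to 45804604 and from 44981390 to 44998142. The promoters of Pdk4 and Aco1, the 2 genes that were higher in every SD library, are shown to describe how the builds agree at these genes. No counted read was compared with these letters. Each window runs from 250 bases before to 50 bases after the start of the gene in RefSeq on GRCm38.p6, and the same letters stand at the same coordinates in GRCm39. Capitals mark a match to a motif named below.
Pdk4 promoter, chr6:5496229-5496528, minus strand: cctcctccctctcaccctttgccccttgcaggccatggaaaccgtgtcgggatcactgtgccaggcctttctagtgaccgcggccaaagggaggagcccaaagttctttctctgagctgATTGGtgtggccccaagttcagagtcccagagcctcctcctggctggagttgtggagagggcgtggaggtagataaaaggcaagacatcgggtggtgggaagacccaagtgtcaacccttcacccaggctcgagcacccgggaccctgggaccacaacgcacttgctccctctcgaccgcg
Aco1 promoter, chr4:40143015-40143314, plus strand: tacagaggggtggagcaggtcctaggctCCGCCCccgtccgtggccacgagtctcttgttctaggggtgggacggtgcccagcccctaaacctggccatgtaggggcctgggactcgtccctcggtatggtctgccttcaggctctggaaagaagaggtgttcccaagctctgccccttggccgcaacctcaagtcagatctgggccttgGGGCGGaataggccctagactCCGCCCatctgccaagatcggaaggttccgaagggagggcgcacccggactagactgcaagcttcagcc
The letters at these coordinates were the same in both builds for the 4 promoters of the 4 genes, for 320 of 423 promoters of rows at the same position on chromosomes 4 and 6, and for 8 of 2031 promoters of the other rows compared on these chromosomes. On both strands, the windows were searched for the E-box CACGTG, the D-box TTATGTAA, the nuclear receptor half-site AGGTCA and its direct repeat with 1 base between (which holds the half-site), the FOXO site TGTTTAC, the GC box GGGCGG, the CCAAT box CCAAT and the TATA box TATAAA. The GC box was found at 3 places in the Aco1 window, at 3 in the Grhpr window, at 1 in the Aldh1b1 window and at none in the Pdk4 window, and it is in 35.7% of 32851 promoter windows of this length. The CCAAT box was found at 1 place each in the Pdk4 and Aldh1b1 windows, and 37.4% of all windows hold it. No match to the other motifs was found in the 4 windows, and these are held by 7.15% (CACGTG), 0.938% (TTATGTAA), 16.3% (AGGTCA), 0.0396% (the direct repeat), 3.65% (TGTTTAC) and 13.6% (TATAAA) of all windows. A match is a description of letters and not a bound site, and a window with no match says nothing of a factor.

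Compared with NLD, the values of Pdk4 and Aco1 were higher and those of Aldh1b1 were lower in every SD library, while the values of Grhpr overlapped. None of the 4 genes passed an adjusted p under 0.05 in edgeR (quasi-likelihood test, Benjamini-Hochberg over 7261 rows), a threshold that 0.289% of all rows tested and 0.288% of the 347 tested rows at the same position passed. At an unadjusted p under 0.05 in edgeR, Pdk4 and Aco1 were higher (4.46% of all rows) and Aldh1b1 was lower (4.02% of all rows), 3 of the 4 genes beside 8.48% of all rows and 13.5% of those at the same position in either direction. In DESeq2, Pdk4 and Aco1 passed an adjusted p under 0.05 in the higher direction (0.964% of all rows) and none of the 4 in the lower direction (0.923%), beside 1.89% of all rows and 4.32% of those at the same position in either direction. All 4 genes passed the filter on low counts, which all rows tested had to pass. Groups without overlap were seen with higher SD values in 9.08% and with lower SD values in 7.93% of all rows tested, and in 13.5% and 8.65% of the tested rows at the same position. Because the 4 genes were chosen with earlier results of these data known, these shares describe the rows and are no test of the 4 genes.

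**Figure D1:**
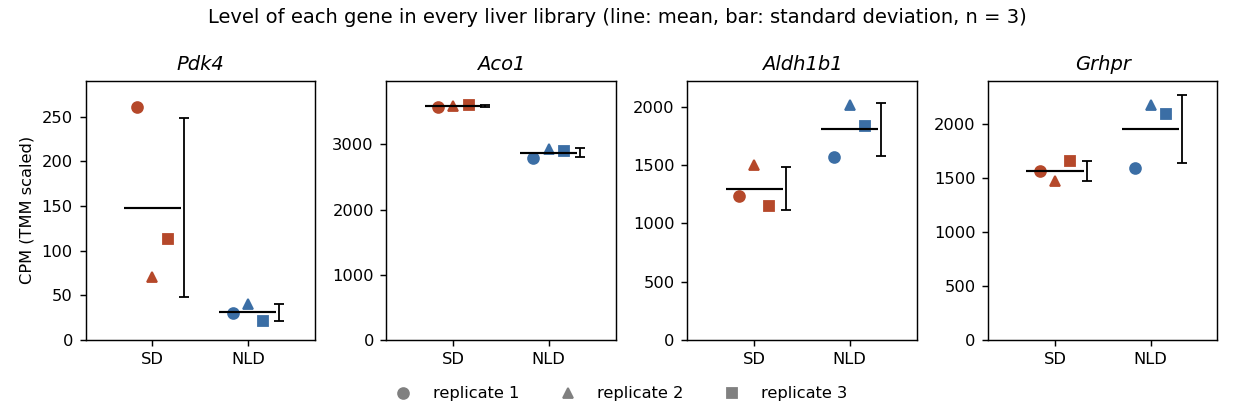
TMM-scaled CPM of Pdk4, Aco1, Aldh1b1 and Grhpr in each liver library under SD (left) and NLD (right), with a marker shape for each replicate number, a line for the mean and a bar for the standard deviation (n = 3). SD replicate 1 is the highest for Pdk4 at 261 CPM, the 3 SD values of Aco1 lie between 3575 and 3613 CPM, and NLD replicate 1 lies within the SD range for Grhpr at 1592 CPM.

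Pdk4, the kinase that switches off pyruvate dehydrogenase, had the largest fold change of the 4 genes. It had 261, 69.9 and 113 CPM under SD (replicates 1 to 3), against 29.9, 40.3 and 21.6 CPM under NLD. The groups did not overlap, and SD replicate 1 stood 3.74 times as high as SD replicate 2. The deposited counts were 1543, 476 and 738 under SD and 174, 241 and 130 under NLD. Pdk4 averaged 148 ± 100.4 CPM under SD and 30.6 ± 9.39 CPM under NLD (standard deviation, n = 3 each), so that the spread was wider under SD (67.9% of the mean) than under NLD (30.7%). The log2 fold change was 2.27 (standard error 0.54), which is 4.83-fold, with an unadjusted p of 0.00563 and an adjusted p of 0.359 from edgeR. DESeq2 gave an adjusted p of 5.47e-04. Without SD replicate 1 the log2 fold change was 1.58 (standard error 0.34), or 2.99-fold, with an adjusted p of 0.456 from edgeR. Among the 347 tested rows at the same position, only 3 had a larger fold change in the higher direction, and the most abundant of these averaged 6.10 CPM. The neighbouring gene Asb4 had 1.91 ± 2.02 CPM under SD and 3.33 ± 1.52 CPM under NLD, with overlap (adjusted p = 0.809 from edgeR). The neighbour on the other side, Dync1i1, had counts of 0, 4 and 0 under SD and 0 in every NLD library.

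Pdk4 is part of a pair of opposing activities, since Pdp1, a phosphatase, switches pyruvate dehydrogenase back on. Pdp1, also a row at the same position, had 40.8, 23.9 and 19.7 CPM under SD, against 17.0, 21.9 and 15.8 CPM under NLD. SD replicate 1 was the highest library for this gene as well, but the groups overlapped. The log2 fold change of Pdp1 was 0.63 (standard error 0.32, adjusted p = 0.631 from edgeR). Of the 26 genes listed for the pyruvate dehydrogenase complex and pyruvate use, 12 had a count of 0 throughout and 11 could be tested. None of the 11 passed the adjusted threshold of edgeR in either direction. At an unadjusted p under 0.05 only Pdk4 was higher and none was lower, and DESeq2 called Pdk4 alone. The median log2 fold change of the list was 0.14, beside 0.03 over all rows tested, and -0.03 to 0.24 with 1 library left out, below 0 without SD replicate 1. Only Pdk4 and Pdp1 of these 11 rows lay at the same position, and the other 9 may stand for other genes.

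Rows named after fasting genes and PPARA targets lay on both sides of 0. Of 38 genes listed, 14 had a count of 0 throughout and 13 could be tested. Of the 13, 6 had a log2 fold change above 0 and 7 below 0, and the median was -0.07. Of all 7261 rows tested, 3851 lay above 0 and 3410 below 0. None of the 13 passed the adjusted threshold of edgeR. An unadjusted p under 0.05 in edgeR was found for 4 of them in the higher direction, beside 4.46% of all rows tested. In the lower direction it was found for none, beside 4.02% of all rows. DESeq2 called Pdk4 and Plin5, both in the higher direction, beside 0.964% of all rows. The sign of this median turned in several settings, to 0.31 with no filter, 0.25 without SD replicate 2, 0.30 without SD replicate 3, 0.09 without NLD replicate 1 and 0.02 without NLD replicate 2. The row labelled Cps1, the first enzyme of the urea cycle, had 2607, 2268 and 2654 CPM under SD, against 1748, 1281 and 1881 CPM under NLD, and the groups did not overlap. Its log2 fold change was 0.62 (standard error 0.17, adjusted p = 0.435 from edgeR). The row labelled Plin5, a lipid droplet protein, had only 3.05, 11.7 and 7.94 CPM under SD and was listed at 0 in every NLD library (adjusted p = 0.151 from edgeR). The row labelled Pck1, the key enzyme of glucose synthesis, had 24.2, 25.3 and 20.6 CPM under SD, against 22.0, 15.9 and 22.4 CPM under NLD, with overlapping groups and an adjusted p of 0.804 from edgeR. Pdk4 was the only one of the 13 rows at the same position.

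Aco1, cytosolic aconitase and iron regulatory protein 1, differed little in size between the groups but varied little within them. It had 3575, 3587 and 3613 CPM under SD, against 2794, 2924 and 2893 CPM under NLD. The lowest SD library lay 651 CPM above the highest NLD library. The mean was 3592 ± 19.5 CPM under SD and 2870.5 ± 68.4 CPM under NLD (standard deviation, n = 3 each). The spread within SD was 0.543% of the mean, and none of the 135 rows between 1000 and 5000 CPM had a smaller one, where the median was 11.2% under SD and 15.3% under NLD. This spread rests on 3 values and does not measure how much Aco1 varies between mice. The log2 fold change was 0.32 (standard error 0.10), or 1.25-fold, with an unadjusted p of 0.0177 and an adjusted p of 0.504 from edgeR. DESeq2 gave an adjusted p of 0.00707 with the same filter on low counts and of 0.755 with no filter. Of the 347 tested rows at the same position, 83 had a larger fold change in the higher direction and 22 had a smaller unadjusted p.

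The gene next to Aco1, which encodes the RNA sensor RIG-I (row Ddx58), had 317 ± 22.3 CPM under SD and 367 ± 70.1 CPM under NLD (standard deviation, n = 3 each). These overlapped, and the log2 fold change was -0.21 (standard error 0.17) at an adjusted p of 0.732 from edgeR. The neighbour on the other side, 1700009N14Rik, had a count of 0 in every library. No other gene of the GRCm39 annotation overlaps Aco1. Of the 23 genes listed for citrate, isocitrate and the citric acid cycle, 11 had a count of 0 throughout and 8 could be tested. The median log2 fold change of the 8 was 0.08, which was -0.015 without SD replicate 2 and 0.30 without NLD replicate 1. None passed the adjusted threshold of edgeR, and Aco1 was the only one past an unadjusted p of 0.05 in edgeR and past an adjusted p of 0.05 in DESeq2. The row labelled Ogdh, a subunit of the oxoglutarate dehydrogenase complex, had 50.3 ± 1.62 CPM under SD and 35.7 ± 13.9 CPM under NLD (adjusted p = 0.652 from edgeR). The row labelled Suclg2, a subunit of succinyl-CoA ligase, had 243 ± 15.4 CPM under SD and 320.2 ± 86.2 CPM under NLD (adjusted p = 0.634 from edgeR). Both rows overlapped between the groups, and neither lies at the same position.
Of 18 genes listed for iron regulatory proteins and iron handling, 6 had a count of 0 throughout and 8 could be tested. The 8 had 4 log2 fold changes above 0 and 4 below 0 and a median of 0.08, which was -0.0084 without NLD replicate 2. None passed the adjusted threshold of edgeR, and Aco1 alone was past an unadjusted p of 0.05 in edgeR and was called by DESeq2. The row labelled Slc39a14, a metal importer, had 2.37, 2.94 and 2.44 CPM under SD, against 0, 1.17 and 2.32 CPM under NLD, without overlap (adjusted p = 0.782 from edgeR). The row labelled Bmp6, the signal by which liver endothelial cells raise hepcidin, had 2.03, 1.32 and 1.07 CPM under SD, against 2.92, 1.67 and 2.49 CPM under NLD, and overlapped (adjusted p = 0.746 from edgeR).

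Aldh1b1, the mitochondrial aldehyde dehydrogenase, had 1238, 1504 and 1148 CPM under SD, against 1567, 2022 and 1840.3 CPM under NLD. The groups did not overlap, but the highest SD library (replicate 2) and the lowest NLD library (replicate 1) were 63.5 CPM apart. The mean was 1297 ± 185 CPM under SD and 1810.0 ± 229 CPM under NLD (standard deviation, n = 3 each). The log2 fold change was -0.48 (standard error 0.16), or 0.716 times the level under NLD, with an unadjusted p of 0.0212 and an adjusted p of 0.516 from edgeR. DESeq2 gave an adjusted p of 0.148. No other annotated gene overlaps Aldh1b1, and its nearest protein-coding neighbour on the right, Igfbpl1, lies 4650 bp away and had counts of 0, 0 and 0 under SD and 0, 8 and 0 under NLD. The neighbour on the left, Shb, had 672 ± 76.8 CPM under SD and 617 ± 192 CPM under NLD, and its groups overlapped. The log2 fold change of Shb was 0.12 (standard error 0.23, adjusted p = 0.892 from edgeR).

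The family of aldehyde dehydrogenases had 21 genes on the list, of which 7 had a count of 0 throughout and 10 could be tested. Of these 10, 8 had a log2 fold change below 0, beside 3410 of the 7261 rows tested in all. The median log2 fold change was -0.31, and -0.30 without Aldh1b1. Single libraries moved this median, to -0.07 without NLD replicate 2, -0.19 without SD replicate 1 and -0.52 without NLD replicate 1. No row of the list passed the adjusted threshold of edgeR or of DESeq2. At an unadjusted p under 0.05 in edgeR, 2 rows were lower, beside 4.02% of all rows tested. The second of the 2 was the row labelled Aldh3b1, with 4.18 ± 0.59 CPM under SD and 7.33 ± 1.60 CPM under NLD (log2 fold change -0.81, adjusted p = 0.578 from edgeR). The row labelled Aldh1l1, a folate enzyme of the family, lay in the other direction, with 945 ± 128 CPM under SD and 741 ± 106 CPM under NLD (adjusted p = 0.618 from edgeR), and its groups overlapped. Of the 10 rows only Aldh1b1 lies at the same position, and the others may stand for other genes, so that these values are no result about the family. Of 15 genes listed for alcohol and aldehyde use, 5 had a count of 0 throughout and 6 could be tested, 3 above 0 and 3 below 0. Aldh1b1 was the only one past an unadjusted p of 0.05 in edgeR, with no call by edgeR after adjustment and none by DESeq2. The row labelled Sord, which makes fructose from sorbitol, had 9.99, 11.3 and 9.62 CPM under SD, against 9.45, 7.02 and 7.96 CPM under NLD, without overlap (log2 fold change 0.34, standard error 0.26, adjusted p = 0.722 from edgeR).

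Grhpr, which removes glyoxylate, had 1565, 1465 and 1653 CPM under SD, against 1592, 2176 and 2091 CPM under NLD. The groups overlapped, since NLD replicate 1 lay below SD replicate 3, while NLD replicates 2 and 3 lay above every SD library. The mean was 1561 ± 93.6 CPM under SD and 1953 ± 316 CPM under NLD (standard deviation, n = 3 each). The log2 fold change was -0.32 (standard error 0.15), or 0.799 times the level under NLD, with an unadjusted p of 0.0762 and an adjusted p of 0.618 from edgeR, and DESeq2 gave an adjusted p of 0.484. Without NLD replicate 1 the log2 fold change was -0.45 (standard error 0.11), with an unadjusted p of 0.00886 and an adjusted p of 0.225 from edgeR, and this is the library by which the groups overlapped. Without any other library it lay between -0.37 (without SD replicate 3) and -0.25 (without NLD replicate 2), with an unadjusted p of 0.106 to 0.204 from edgeR. NLD replicate 1 was also the lowest NLD library for Aldh1b1, and on the first component it lay with the SD libraries.

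Zbtb5, a zinc finger gene on the other strand, overlaps Grhpr, and 4145 bp of its exons are shared with exons of Grhpr in the GRCm39 annotation. This overlap depends on the annotation, since Grhpr ends at 44998142 there but at 44990734 in RefSeq on GRCm38. Zbtb5 starts at 44991242 in the GRCm39 annotation. Neither the annotation release nor the strand setting of the counting is given. To which gene reads from this stretch were counted cannot be told. Zbtb5 had counts of 1252, 943 and 1091 under SD and 641, 850 and 907 under NLD, which is 172 ± 37.1 CPM under SD and 134 ± 21.3 CPM under NLD (standard deviation, n = 3 each). Its log2 fold change was 0.36 (standard error 0.21, adjusted p = 0.652 from edgeR), in the other direction from Grhpr. The neighbours Zcchc7 and Polr1e, both at the same position, lay in that direction too, with overlapping groups. Their log2 fold changes were 0.27 (standard error 0.19, adjusted p = 0.709 from edgeR) and 0.27 (standard error 0.22, adjusted p = 0.740 from edgeR). Of 21 genes listed for glyoxylate and glycolate metabolism, 10 had a count of 0 throughout and 9 could be tested, 6 above 0 and 3 below 0, with a median log2 fold change of 0.23. No row had an unadjusted p under 0.05 in edgeR, and none was called after adjustment in edgeR or DESeq2. With at least 10 counts in every library, 6 rows were tested and the median was -0.05, and with 1 library left out it was 0.11 (without NLD replicate 1) to 0.37 (without SD replicate 2). The row labelled Gcsh, a protein of the glycine cleavage system, had 2.18 ± 0.037 CPM under SD and 0.452 ± 0.392 CPM under NLD (standard deviation, n = 3 each), with 0 in NLD replicate 3, and every SD library was higher. Its log2 fold change was 2.22 (standard error 0.99, adjusted p = 0.598 from edgeR). The row labelled Agxt2, a mitochondrial aminotransferase that uses glyoxylate, had 518, 604 and 615 CPM under SD, against 634, 821 and 756 CPM under NLD, and every SD library was lower. Its log2 fold change was -0.35 (standard error 0.15, adjusted p = 0.593 from edgeR), and only Grhpr of the 9 rows lies at the same position.

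**Figure D2:**
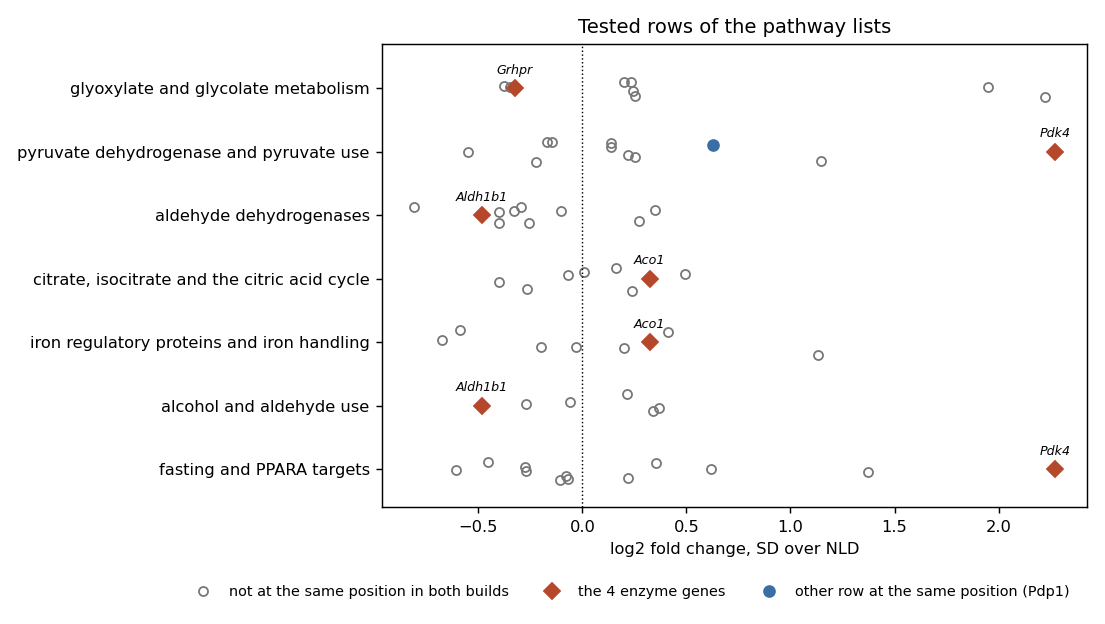
log2 fold change (SD over NLD) of the tested rows of each pathway list. Diamonds are the 4 enzyme genes, the filled circle is Pdp1 and open circles are rows at another position in the other build, and Plin5 is not drawn because its NLD libraries were all at 0. Pdk4 lies at 2.27, and Aldh1b1 and Grhpr lie at -0.48 and -0.32.

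Ratios of the counts of 2 genes within a library do not depend on the scaling between libraries. The ratio of Aco1 to Aldh1b1 counts was 2.89, 2.39 and 3.15 under SD, against 1.78, 1.45 and 1.57 under NLD. The ratio of Aco1 to Grhpr counts was 2.28, 2.45 and 2.19 under SD, against 1.76, 1.34 and 1.38 under NLD. Both were higher in every SD library. For the first ratio this follows from the values of the 2 genes, since Aco1 was higher and Aldh1b1 lower in every SD library. The ratio of Aldh1b1 to Grhpr counts, of the 2 genes that were lower on average, was 0.791, 1.03 and 0.695 under SD, against 0.985, 0.929 and 0.880 under NLD, and overlapped. An exact two-sided permutation test of the mean log2 CPM gave p = 0.10 for Pdk4, Aco1 and Aldh1b1, the smallest that 3 samples against 3 can give, and 0.20 for Grhpr.

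Per length, Pdk4 was the least abundant of the 4 genes. With CPM divided by the kb of all annotated exons, Aldh1b1 had 533 ± 76.0 CPM per kb under SD and 744 ± 94.1 under NLD, and Aco1 had 456 ± 2.48 under SD and 364 ± 8.69 under NLD. Grhpr had 146 ± 8.74 under SD and 182 ± 29.5 under NLD, and Pdk4 had 39.0 ± 26.5 under SD and 8.06 ± 2.47 under NLD (standard deviation, n = 3 each). By these exon lengths, Aldh1b1 and Aco1 were about 1 standard deviation apart under SD. The other neighbours in this order were farther apart than their spread in both groups. The order of Aldh1b1 and Aco1 under SD depended on the length used. By the length of the canonical transcript (4587 bp, against 7876 bp of all exons), Aco1 had 783 ± 4.26 CPM per kb under SD and 626 ± 14.9 under NLD. The exon length of Grhpr, 10712 bp, is that of the GRCm39 annotation and includes the stretch shared with Zbtb5 there. By its canonical transcript (7566 bp), Grhpr had 206 ± 12.4 CPM per kb under SD and 258 ± 41.8 under NLD. A length that ends where RefSeq on GRCm38 ends the gene was not used. The place of Grhpr in the order therefore holds only for the lengths of the GRCm39 annotation.

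**Figure D3:**
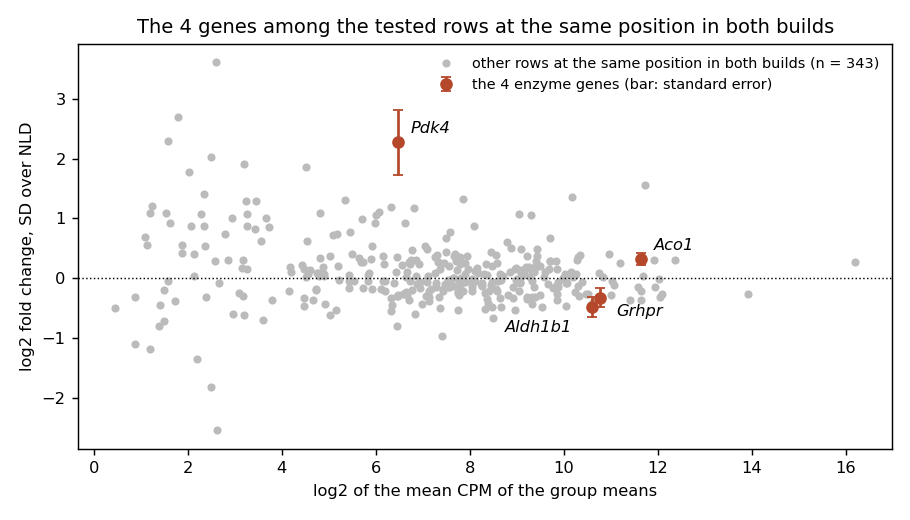
log2 fold change (SD over NLD) against the log2 of the mean CPM for the 347 tested rows whose position is shared by GRCm38 and GRCm39, with the 4 genes in color and their standard error. Pdk4 lies at 2.27, above all but 3 of these rows, Aco1 at 0.32, Grhpr at -0.32 and Aldh1b1 at -0.48.

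The rows most like each gene over the 6 libraries were sought among the 347 tested rows at the same position by Pearson r of the log2 CPM. These r values describe 6 points that include the difference between the groups. The rows most like Pdk4 were Tmem106b, a lysosomal membrane protein (r = 0.971), Ints8, a subunit of the Integrator complex (r = 0.949), and Trp53inp1, a p53-induced stress protein (r = 0.942). Trp53inp1 had 1085 CPM in SD replicate 1, where Pdk4 was the highest too, 640.0 and 713 in the other SD libraries, and 608, 637 and 493 under NLD. The rows most like Aco1 were Rusc2, a trafficking protein (r = 0.970), Tbc1d2, a Rab GTPase-activating protein (r = 0.969), and Dync2h1, the heavy chain of the ciliary dynein (r = 0.936). Rusc2 had 332 ± 33.4 CPM under SD and 133 ± 16.4 CPM under NLD (standard deviation, n = 3 each). Its log2 fold change was 1.32 (adjusted p = 0.0345 from edgeR), and it was the only 1 of the 347 rows past the adjusted threshold of edgeR. Dync2h1 had 70.0 ± 11.1 CPM under SD and 35.2 ± 3.45 CPM under NLD (standard deviation, n = 3 each), with a log2 fold change of 0.99 and an adjusted p of 0.170 from edgeR against 6.50e-04 from DESeq2.
The rows most like Aldh1b1 were Xpa, a DNA repair protein (r = 0.994), Atp6v1f, a subunit of the vacuolar proton pump (r = 0.981), and Clta, clathrin light chain A (r = 0.980). Xpa had 81.6, 110 and 80.6 CPM under SD, against 113, 160 and 137 CPM under NLD, so that SD replicate 2 was the highest SD library and NLD replicate 1 the lowest NLD library, as for Aldh1b1. The rows most like Grhpr were Fzd8, a Wnt receptor (r = 0.969), Cibar1, a ciliary protein (r = 0.947), and Pon1, a paraoxonase of high-density lipoprotein (r = 0.942). Fzd8 had 260.2, 282 and 296 CPM under SD, against 283, 515 and 528 CPM under NLD, again with NLD replicate 1 near the SD libraries.

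Levels of rows named after markers of other liver cell types were read beside these results. The summed CPM of the raw counts was 977 to 1032 under SD and 1007 to 1290 under NLD for 8 cholangiocyte markers, 1717 to 2089 under SD and 1620 to 1977 under NLD for 10 endothelial markers, and 18.0 to 23.1 under SD and 10.1 to 23.5 under NLD for 10 markers of stellate cells and fibroblasts. It was 17.0 to 57.1 under SD and 12.5 to 37.1 under NLD for 9 macrophage markers and 506 to 534 under SD and 574 to 639 under NLD for 11 lymphocyte markers. Neutrophil and red blood cell markers summed to at most 1.08 and 7.93 CPM under SD and 0.465 and 9.29 CPM under NLD. Of the rows of these lists only Cftr lies at the same position, and their part in the results was not tested.

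**Figure D4:**
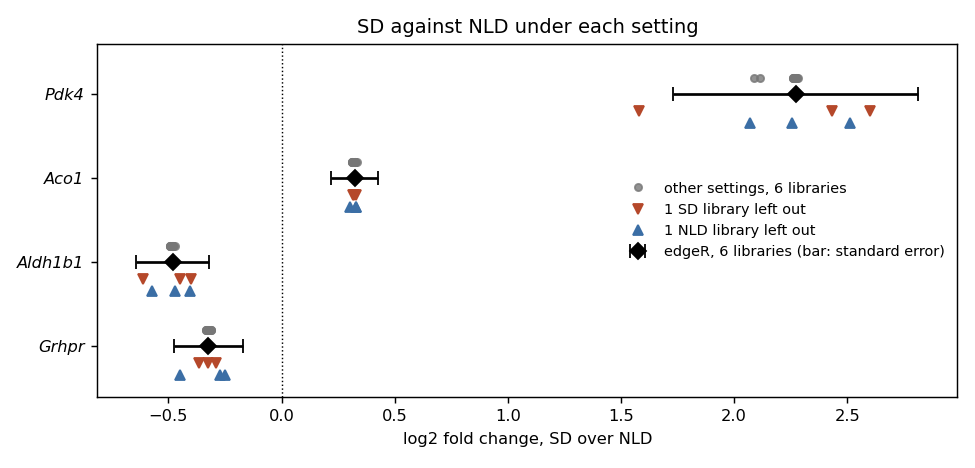
log2 fold change (SD over NLD) of each gene in edgeR with the 6 libraries (diamond, bar for the standard error), under the other settings (circles) and with 1 SD library (triangles down) or 1 NLD library (triangles up) left out. No setting turned the direction of any of the 4 genes, and the log2 fold change of Pdk4 was 1.58 without SD replicate 1.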

How the data were processed

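RNA of 3 liver samples of ABX mice under SD and 3 of ABX mice under NLD was sequenced. Reads were aligned with HISAT2 and quantified with StringTie, and the table the authors deposited holds raw counts as whole numbers. No source used here gives the step between StringTie and this table, the strand setting or the annotation release. The fit used edgeR 4.0.16 in R 4.3.3, with TMM factors, the filter filterByExpr by group and a robust, two-sided quasi-likelihood test (glmQLFTest), and p-values were adjusted by Benjamini-Hochberg over 7261 rows. The standard error is the absolute log2 fold change over the root of F. DESeq2 1.42.0 and voom of limma 3.58.1 were alternatives, as were other scaling factors, filters, the replicate number as a block and left-out libraries. Log2 CPM used a prior count of 2.

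Rows were matched to GRCm39 by gene ID and to RefSeq GRCm38.p6 by symbol. A row was called at the same position where its start or end nearly agreed and the neighbouring rows did so in the median, and no coordinate was converted. Promoters are from RefSeq. The genes, the lists and the tests were chosen with earlier results of these data known. Named were the 4 genes, the 3 rows most like each by Pearson r, list rows at the same position, up to 2 further rows of a list with the smallest p, and overlapping or neighbouring genes. Cftr and the hepatocyte markers were named, and the canonical transcript length was added, after the values were seen. Libraries within a group were compared by their counts, and no pair agreed within sampling noise (chi-square per row 31.5 to 70.2). The labels do not say that the samples of a group are separate mice beyond their numbers, so p-values measure only the spread between these samples.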

Additional observations from a re-analysis of the deposited data

How the results depend on the processing

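The direction of the 4 genes was the same under all 18 alternatives run. Over these the adjusted p was 8.75e-06 to 0.792 for Pdk4, 0.00707 to 0.887 for Aco1, 0.148 to 0.908 for Aldh1b1 and 0.225 to 0.939 for Grhpr. Pdk4 passed the adjusted threshold in DESeq2 with the same filter (log2 fold change 2.26, adjusted p = 5.47e-04) and in DESeq2 with no filter (2.26, adjusted p = 8.75e-06), and Aco1 passed in DESeq2 with the same filter only (0.31, adjusted p = 0.00707). With 1 library left out, the log2 fold change was 1.58 to 2.60 for Pdk4, 0.30 to 0.33 for Aco1, -0.61 to -0.40 for Aldh1b1 and -0.45 to -0.25 for Grhpr. Of all rows tested, 21 passed the adjusted threshold in edgeR, 44 with no filter, 137 in DESeq2 and 89 in DESeq2 with no filter. The count was 0 in voom of limma (716 at an unadjusted p under 0.05). With 1 library left out, edgeR gave 0 to 30, with 0 without SD replicate 1, 2 or 3 (437, 681 and 397 at an unadjusted p under 0.05). Correlations of same-numbered deviations between the groups were weak (0.076, 0.069 and 0.036), each the highest of its library, and the others were -0.058 to -0.014. Whether the replicate numbers pair the samples cannot be told from 3 samples per group. A fit with the replicate block gave 0 rows (766 at an unadjusted p under 0.05). The median of 6 of the 7 lists turned its sign in some setting, the aldehyde dehydrogenase list excepted. With 1 library left out this held for the pyruvate (-0.03), citrate (-0.015), iron (-0.0084), alcohol (-0.0014, against 0.08 with 6 libraries) and fasting lists (up to 0.30). The median of the glyoxylate list was -0.05 with at least 10 counts in every library, and that of the fasting list 0.31 with no filter and 0.32 in DESeq2 with no filter. The cause of these differences was not tested.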
